A study of Mus musculus with 4 samples.

Results

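The SLC25 family of mitochondrial carriers was examined in RNA-seq counts of embryonic mouse retinas that lack the transcription factor Nrf1 in their progenitors. Members were taken by symbol alone, as every gene of the count table named Slc25a followed by a number, with pseudogene symbols left out. This gave 47 carrier genes among 24062 genes. RNA came from whole retinas of E13.5 embryos in the mixed strain that the labels give as C57BL/6 129. There were 2 wildtype libraries and 2 libraries of Nrf1 f/f;Six3-Cre retinas, labelled Nrf1-CKO, in which Cre driven by Six3 regulatory sequence acts in retinal progenitors and removes exon 4 of a floxed Nrf1 allele. Each library was made from pooled retinas of several littermates, so p-values measure the spread between these pools and not between single embryos.

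SLC25 proteins sit mostly in the inner mitochondrial membrane, which is closed to most charged metabolites. Each carrier exchanges or co-transports a narrow set of substrates, such as ADP for ATP, phosphate, citrate, amino acids, coenzymes or iron. They are encoded in the nucleus, made in the cytosol and inserted through the TIM22 complex, and Nrf1 is best known as an activator of nuclear genes for the respiratory chain and for mitochondrial biogenesis.

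Between 74577660 and 85933945 reads were counted on genes in each library, and the scaling factors of edgeR (TMM) ranged from 0.9918 to 1.019. Nrf1 itself had 9052 and 7789 reads in wildtype and 8594 and 8284 in Nrf1-CKO retinas (log2 fold change -0.03, adjusted p = 0.794 from edgeR). A count over the whole gene does not show whether exon 4 is present, so it did not check the labels. The genotypes also differed in marker genes of cell types. Of 12 tested markers of retinal ganglion cells (RGCs), 11 fell, and their summed level was 3290 and 3730 CPM, that is reads scaled to a common library size, in wildtype against 1420 and 1150 in Nrf1-CKO libraries. Of 8 progenitor markers, 1 fell, Ccnd1, with 2540 and 2770 against 1390 and 1500 CPM. It made up most of the fall in the list's sum, 6380 and 6860 against 5040 and 5620 CPM. The median log2 fold change of the progenitor list was -0.05. All 8 lens markers rose, with sums of 138 and 376 against 7820 and 3200 CPM, and so did all 8 macrophage and microglia markers, 5 of 6 tested pigment epithelium markers and 6 of 8 mesenchyme markers. Of 6 endothelial markers 4 rose and 1 fell. The pigment epithelium sums were 227 and 162 against 413 and 437 CPM, with the defining gene Rpe65 at 4 reads in 1 wildtype library and at 0 in the other 3 libraries. Mesenchyme sums were 235 and 168 against 350 and 303 CPM. Endothelial sums were 255 and 259 against 258 and 247 CPM, and most of this was Kdr, the 1 that fell. Kdr had 200 and 211 against 144 and 137 CPM, and the median log2 fold change of the endothelial list was 1.02. In these bulk samples, fewer or more sampled cells of a type and less or more RNA per cell cannot be told apart.

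The carriers as a family stayed close to their wildtype levels. Of the 47 genes, 43 passed the filter on low counts and were tested. To be called, a gene had to differ by 1.4-fold or more with an adjusted p no higher than 0.2 in the quasi-likelihood test of edgeR with p-values adjusted by Benjamini-Hochberg over all 15762 tested genes. No carrier was called lower, where 8.04% of all tested genes were, and 2 carriers (4.65%) were called higher, Slc25a42 and Slc25a45, where 12.8% of all tested genes were. At an unadjusted p under 0.05, 4 carriers (9.3%) were lower and 7 (16.3%) were higher, against 16.9% and 17.9% of all tested genes. The DESeq2 Wald test also called 0 carriers lower and 2 higher.

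At an adjusted p of at most 0.2 with no limit on the fold, 4 carriers (9.3%) were lower and 8 (18.6%) were higher, against 19.5% and 20.4% of all tested genes. At an adjusted p of at most 0.05, 2 carriers (4.65%) were lower, Slc25a1 and Slc25a27, and 0 were higher, against 10.9% and 11.9% of all tested genes. Of the 12 carriers with an adjusted p of at most 0.2, 1 carrier, Slc25a1, kept it whichever library was left out. The libraries of the genotypes did not overlap for 9 carriers that were lower (20.9%, against 31.6% of all tested genes) and for 16 that were higher (37.2%, against 30.9%). The median log2 fold change of the tested carriers was 0.07, against 0.00070 over all tested genes, and the median of its absolute value was 0.14 against 0.22. Their summed level was 1571 and 1597 CPM in the wildtype and 1589 and 1623 CPM in the Nrf1-CKO libraries.

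A p above the threshold does not show that a gene kept its level, so the 95% intervals of the fold changes were also examined. For 28 of the 43 carriers (65.1%) the whole interval lay inside a 1.4-fold change in either direction, against 46.6% of all tested genes. With a library left out there were 18 to 24 such carriers, the lowest being 18 of 44 (40.9%) without wildtype replicate 1, against 36.3% of all tested genes in that fit. The median read count of the carriers, 1745.2, was close to that of all tested genes, 1812.2. Among the 26 carriers that averaged at least 1000 reads, 22 intervals (84.6%) lay inside this limit, against 72% of all genes at that depth, and 0 carriers were called where 6.52% of such genes were called lower and 5.66% higher. Among the 17 tested carriers with fewer reads, 6 intervals (35.3%) did, against 7.33% of all genes at that depth. Both calls were in this group (11.8%), where 23.9% of such genes were called higher and 10.4% lower.

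**Figure D1:**
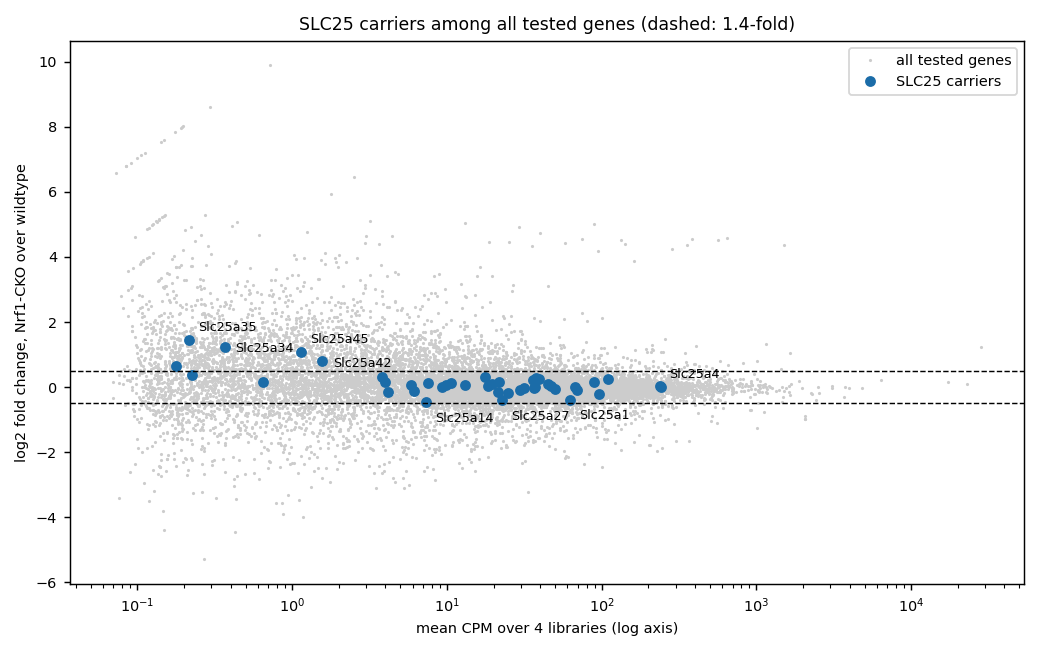
Each point is a tested gene, with its mean CPM over the 4 libraries on a log axis and its log2 fold change of Nrf1-CKO over wildtype on the vertical axis. Blue points are the 43 tested SLC25 carriers and dashed lines mark a 1.4-fold change. The carriers form a narrow band within the grey cloud of 15762 genes, and those beyond the upper line are genes of low count.

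Levels were compared between carriers per kilobase of the longest coding transcript and scaled to library depth as CPM is (RPKM), because a read count grows with transcript length. A few carriers made up much of the family's RNA. Slc25a3, the mitochondrial phosphate carrier, had 138 and 153 RPKM in wildtype and 146 and 153 in Nrf1-CKO libraries. Slc25a4, an ADP/ATP carrier of excitable tissues, had 125 and 123 against 125 and 126 RPKM. Slc25a5, the ADP/ATP carrier of proliferating cells, had 71.6 and 64 against 73.9 and 78.7 RPKM. These 3 genes together held 45.1% and 45.2% of the summed RPKM of the carriers in wildtype and 46.2% and 46.1% in Nrf1-CKO retinas. After them came Slc25a39 with a wildtype mean of 59.7 ± 0.358 RPKM (SD, n = 2), Slc25a1 with 42.2 ± 0.804 and Slc25a11 with 41.7 ± 1.14, and the last pair did not differ beyond its spread. At the other end, 11 carriers stayed below 1 RPKM in every library.

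The order of the most abundant carriers depended on the length used. Over all annotated exon bases of a gene, Slc25a4 was first with a wildtype mean of 101 RPKM, followed by Slc25a5 with 51.1 and Slc25a3 with 42.2, since the exons of Slc25a3 span 5550 bases against 1612 in its longest coding transcript. The level of Slc25a5 is also uncertain because 46.6% of the 50-base words of its exons recur in other genes, most of them processed pseudogenes, and reads that map to several places were left out by the counting.

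**Figure D2:**
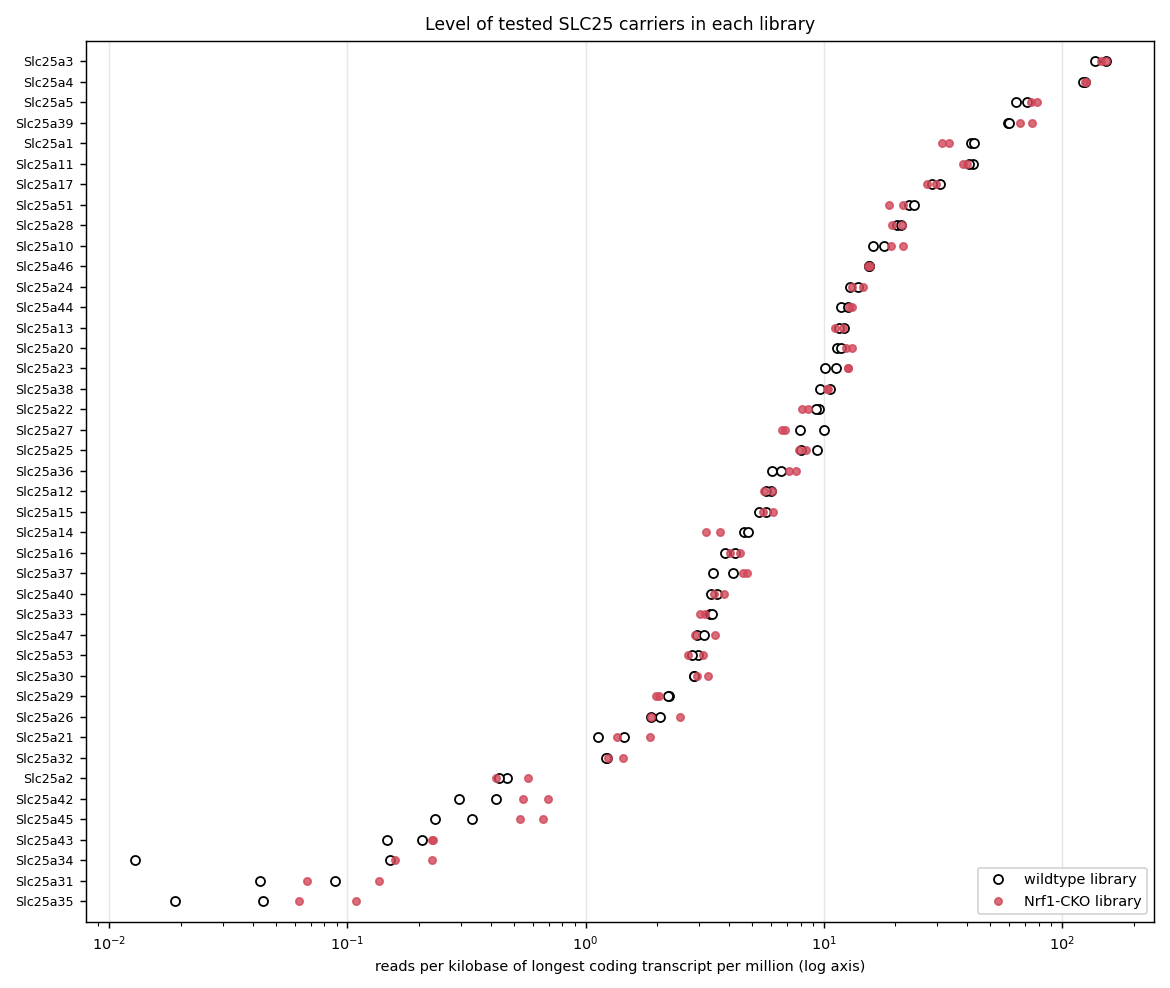
Levels of the tested carriers, all but 1, in each library, in RPKM over the longest coding transcript on a log axis, ordered by the wildtype mean. Open points are the 2 wildtype and filled points the 2 Nrf1-CKO libraries. Levels run down from Slc25a3, with a wildtype mean of 145 RPKM, and the gaps between genotypes are small beside this range, though the libraries of the genotypes do not overlap for 9 lower and 16 higher carriers.

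The adenine nucleotide and phosphate carriers supply the ATP synthase with ADP and phosphate and export ATP. Of 8 genes, 7 were tested and 0 were called, and 6 of the 7 intervals lay inside a 1.4-fold change. The group's summed level was 665 and 673.9 CPM in the wildtype and 689.2 and 703.8 CPM in the Nrf1-CKO libraries. Slc25a4, at 46206797 to 46211284 of chromosome 8 (GRCm38, as all positions here), had 21020 and 17589 reads in wildtype and 20010 and 19997 reads in Nrf1-CKO libraries. After scaling, the libraries of both genotypes sat within a few CPM of each other, at 239 ± 2.03 and 241 ± 0.59 CPM (SD, n = 2 each). Its log2 fold change was 0.02, with a 95% interval from -0.15 to 0.19, and the sign turned when only library size was used for scaling. Slc25a3, on chromosome 10 from 91116574 to 91124059, had 19433 and 18268 against 19592 and 20443 reads. Its libraries overlapped (234 ± 17.3 and 241 ± 7.96 CPM), and the interval of its log2 fold change ran from -0.15 to 0.24.

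Slc25a5, on the X chromosome from 36795651 to 36798807, had 7775 and 5885 against 7609 and 8076 reads. Both Nrf1-CKO libraries lay above both wildtype libraries after scaling, with a log2 fold change of 0.17 and an adjusted p of 0.197 from edgeR. It was 0.10 (adjusted p = 0.645 from edgeR) without wildtype replicate 2 and 0.26 without wildtype replicate 1. The ratio of Slc25a4 to Slc25a5 reads was 2.7 and 2.99 in wildtype and 2.63 and 2.48 in Nrf1-CKO retinas. Slc25a23, which exchanges ATP-Mg for phosphate under control of calcium, had 3337 and 2509 against 3555 and 3521 reads and a log2 fold change of 0.25 (adjusted p = 0.0826 from edgeR), less than 1.4-fold. Without wildtype replicate 2 it was 0.17 (adjusted p = 0.394 from edgeR). The other calcium-regulated members, Slc25a24 and Slc25a25, had overlapping libraries and log2 fold changes of 0.05 and -0.09. Slc25a31, the ADP/ATP carrier known from male germ cells, was near the limit of detection with 8 and 14 against 12 and 24 reads, and Slc25a41 was not tested at 1 and 0 against 7 and 0 reads.

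The carboxylate and aspartate-glutamate carriers move intermediates of the citric acid cycle and run the malate-aspartate shuttle. Of 8 genes, 7 were tested and 0 were called. Among genes with an Slc25a symbol, the best supported difference was in this group. Slc25a1 exports citrate, from which cytosolic acetyl-CoA for lipid synthesis is made, and lies on chromosome 16 from 17925223 to 17928219. It had 6071 and 5283 reads in wildtype and 4327 and 4627 reads in Nrf1-CKO libraries. Both Nrf1-CKO libraries were below both wildtype libraries, with means of 54 ± 2.72 against 70.3 ± 1.35 CPM (SD, n = 2). The log2 fold change was -0.38 (SE 0.08, adjusted p = 0.00801 from edgeR). The Nrf1-CKO level was 0.769 of the wildtype level, which is short of the 1.4-fold limit, and the 95% interval from -0.56 to -0.20 reached past that limit, which is 0.485 on the log2 scale.

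Slc25a10, the dicarboxylate carrier, had 2846 and 2684 against 3228 and 3617 reads. It was higher in both Nrf1-CKO libraries, with a log2 fold change of 0.27 (adjusted p = 0.0852 from edgeR), and an antisense gene overlaps its exons. Without Nrf1-CKO replicate 2 it was 0.18 (adjusted p = 0.331 from edgeR). The carriers of the malate-aspartate shuttle had intervals inside 1.4-fold. Slc25a11, which exchanges 2-oxoglutarate for malate, had 71.4 ± 1.94 against 67.2 ± 1.73 CPM and an interval of the log2 fold change from -0.26 to 0.08. The aspartate-glutamate carriers Slc25a12 and Slc25a13 had overlapping libraries, and their read ratio was 0.999 and 1 in wildtype and 1.11 and 0.946 in Nrf1-CKO retinas. Of the glutamate carriers, Slc25a22 had 2350 and 1933 against 1899 and 1988 reads (log2 fold change -0.17, adjusted p = 0.234 from edgeR), and Slc25a18 was not tested at 4 and 14 against 4 and 7 reads. Slc25a21, the oxodicarboxylate carrier, had 259 and 280 against 292 and 402 reads with overlapping libraries after scaling.

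The uncoupling-protein-like carriers Slc25a14 and Slc25a27 are known for their expression in neurons, and both were lower in Nrf1-CKO retinas. Slc25a14, on the X chromosome from 48623413 to 48662294, had 731 and 641 against 551 and 476 reads. Its groups did not overlap (8.49 ± 0.209 against 6.19 ± 0.622 CPM), and the log2 fold change was -0.46 (SE 0.15, adjusted p = 0.0633 from edgeR), just short of 1.4-fold. Leaving out 1 library moved it between -0.36 (adjusted p = 0.227 from edgeR, without Nrf1-CKO replicate 2) and -0.56 (without Nrf1-CKO replicate 1), and only the latter passed both thresholds. Without wildtype replicate 2 it was -0.43 (adjusted p = 0.209 from edgeR), and limma on the deposited normalized values gave -0.27. Slc25a27, on chromosome 17 from 43641891 to 43667214, had 2019 and 2153 against 1656 and 1605 reads. The groups did not overlap either (26 ± 4.22 against 19.7 ± 0.378 CPM), and the log2 fold change of -0.40 (SE 0.12, adjusted p = 0.0475 from edgeR) became -0.56 and passed both thresholds without wildtype replicate 1. It was -0.23 (adjusted p = 0.322 from edgeR) without wildtype replicate 2, so its size rested on which wildtype library was kept. The third gene of the group, Slc25a30, had 893 and 758 against 972 and 876 reads, a log2 fold change of 0.13 and an interval inside 1.4-fold. The RGC markers, the main list of early neurons, had a median log2 fold change of -1.58 in the same libraries, and their part in the lower levels of Slc25a14 and Slc25a27 was not tested.

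**Figure D3:**
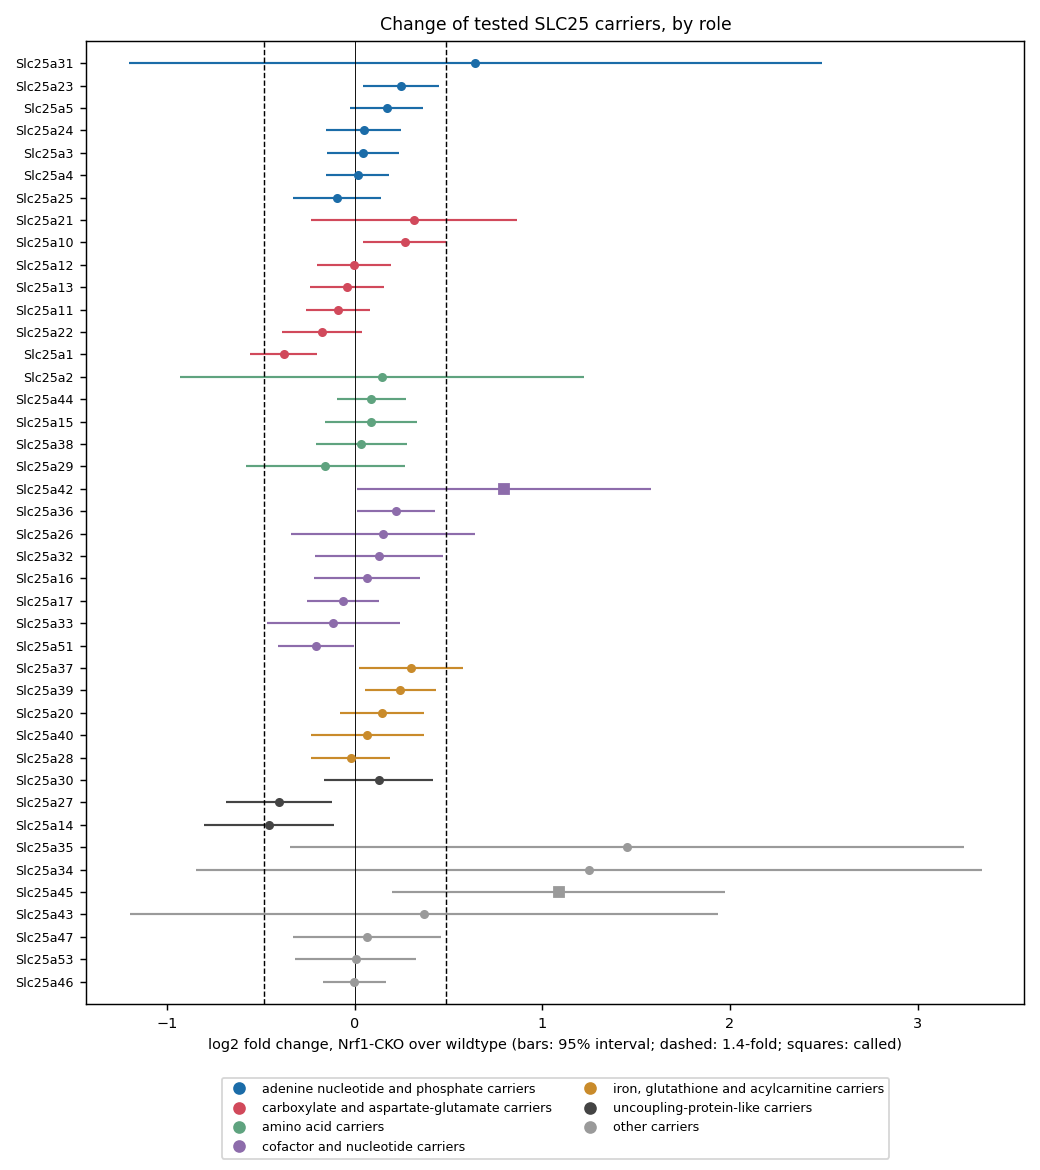
Log2 fold change of Nrf1-CKO over wildtype for the tested carriers, all but 1, grouped and coloured by role, with bars for the 95% interval, dashed lines at 1.4-fold and squares for the 2 called genes. Most intervals lie between the dashed lines. Intervals lie wholly below 0 for 4 carriers (Slc25a1, Slc25a14, Slc25a27 and Slc25a51) and wholly above 0 for 7 (Slc25a10, Slc25a23, Slc25a36, Slc25a37, Slc25a39, Slc25a42 and Slc25a45), while the wide bars belong to genes with few reads.

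The amino acid carriers were tested for all 5 genes, with 0 called and log2 fold changes between -0.16 and 0.14. Slc25a44, a carrier of branched-chain amino acids, was the most abundant per length and had 3695 and 3369 against 3813 and 3908 reads, with an interval from -0.10 to 0.27. The glycine carrier Slc25a38, needed for heme synthesis, had 18.1 ± 1.16 against 18.5 ± 0.0197 CPM. The ornithine carrier Slc25a15 had overlapping libraries with 18.9 ± 0.893 against 20.1 ± 1.39 CPM. Slc25a29, a carrier of basic amino acids, had the largest difference of the group, with 390 and 325 against 333 and 324 reads and an interval from -0.58 to 0.27. The second ornithine carrier, Slc25a2, had between 44 and 65 reads in each library.

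The cofactor and nucleotide carriers held 1 of the called genes among 9 tested. Slc25a42 imports coenzyme A into the matrix and lies on chromosome 8 from 70184340 to 70212305. It had 82 and 100 reads in wildtype and 184 and 144 reads in Nrf1-CKO libraries. All of these counts are low for the depth, and both Nrf1-CKO libraries were above both wildtype libraries (1.98 ± 0.335 against 1.14 ± 0.291 CPM; SD, n = 2). The level was 1.73-fold higher, with a log2 fold change of 0.79 (SE 0.34, adjusted p = 0.139 from edgeR) and a 95% interval from 0.01 to 1.58. The call was lost without wildtype replicate 1, where the log2 fold change was 0.56 with an adjusted p of 0.413 from edgeR, and without Nrf1-CKO replicate 1, where it was 0.61 with an adjusted p of 0.419 from edgeR. On the deposited normalized values, tested with limma, it was 0.25 and below the fold limit.

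Of the rest of this group, 7 had intervals inside 1.4-fold. Slc25a51, which brings NAD into the matrix, had 8824 and 7877 against 7959 and 6902 reads. It was lower in both Nrf1-CKO libraries, and the log2 fold change was -0.21 (adjusted p = 0.134 from edgeR). It was -0.11 (adjusted p = 0.469 from edgeR) without Nrf1-CKO replicate 2 and -0.31 (adjusted p = 0.0231 from edgeR) without Nrf1-CKO replicate 1. Slc25a36, a pyrimidine nucleotide carrier, had 2779 and 2570 against 3327 and 3082 reads. It was higher in both Nrf1-CKO libraries by 0.22 on the log2 scale (adjusted p = 0.12 from edgeR), and 11.8% of the 50-base words of its exons recur in a pseudogene. The peroxisomal carrier Slc25a17, the most abundant of the group over the longest coding transcript, had 4650 and 3651 against 3894 and 4229 reads with overlapping libraries. Over all annotated exon bases, Slc25a51 and Slc25a17 were within their spread, at 18.8 ± 0.696 and 18 ± 0.964 RPKM in wildtype. The pyrimidine nucleotide carrier Slc25a33, the folate carrier Slc25a32, the S-adenosylmethionine carrier Slc25a26 and Slc25a16 had log2 fold changes between -0.11 and 0.15, with adjusted p from edgeR of 0.606 or more.

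The iron, glutathione and acylcarnitine carriers had 0 called of 5 tested, with a group sum of 178.8 and 178.1 CPM in wildtype and 194.6 and 210.8 CPM in Nrf1-CKO libraries. Slc25a39, which carries glutathione into mitochondria, lies on chromosome 11 from 102402985 to 102407946 and had 8770 and 7492 against 9329 and 10409 reads. The Nrf1-CKO libraries were both higher (119 ± 9.56 against 101 ± 0.614 CPM), with a log2 fold change of 0.24 (SE 0.08, adjusted p = 0.0676 from edgeR) that stayed under 1.4-fold. Without Nrf1-CKO replicate 2 it was 0.16 (adjusted p = 0.272 from edgeR). Its paralogue Slc25a40 had 866 and 696 against 880 and 795 reads with overlapping libraries. Slc25a37, or mitoferrin 1, the iron importer of developing red cells, had 1517 and 1064 against 1653 and 1579 reads. The libraries did not overlap after scaling, and the log2 fold change was 0.30 (SE 0.12, adjusted p = 0.119 from edgeR). It was 0.17 (adjusted p = 0.47 from edgeR) without wildtype replicate 2. Slc25a28, or mitoferrin 2, the iron importer of other cells, had 31.8 ± 0.849 against 31.3 ± 2.26 CPM, and the read ratio of Slc25a37 to Slc25a28 was 0.555 and 0.443 in wildtype and 0.67 and 0.58 in Nrf1-CKO retinas.

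Markers of erythroid cells were read beside Slc25a37 and Slc25a39. Of 8 tested, 4 rose and 4 were not called, and the summed level of the 11 in the table was 502 and 588 CPM in wildtype and 655 and 655 CPM in Nrf1-CKO libraries. Most of this sum was Hbb-y, an embryonic globin, with 473 and 555 against 609 and 614 CPM, which was not called at 1.19-fold. Alas2, the first enzyme of heme synthesis in red cells, had 603 and 695 against 967 and 1069 reads, while Hba-a1 and Hbb-bt were listed at 0 reads in all 4 libraries. Reads that map to several places were left out by the counting, so a count of 0 does not show that a gene was silent. The part of erythroid cells in the levels of these carriers was not tested. Slc25a20, the carnitine-acylcarnitine carrier of fatty acid oxidation, had 1774 and 1555 against 1841 and 1937 reads and an interval of the log2 fold change from -0.08 to 0.37.

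The remaining 9 genes have varied or little known substrates, and 7 of them were tested. Slc25a45, whose transport role is less well described, lies on chromosome 19 from 5877808 to 5885878 and had 53 and 64 reads in wildtype and 115 and 143 reads in Nrf1-CKO libraries. Both Nrf1-CKO libraries were above both wildtype libraries (1.56 ± 0.243 against 0.734 ± 0.182 CPM; SD, n = 2). It rose 2.12-fold, a log2 fold change of 1.09 (SE 0.39, adjusted p = 0.0803 from edgeR) with a 95% interval from 0.20 to 1.97. The call was lost without wildtype replicate 1 (0.85, adjusted p = 0.268 from edgeR) and without Nrf1-CKO replicate 2 (0.92, adjusted p = 0.309 from edgeR), and the difference on the deposited normalized values was 0.30.

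Larger fitted changes in this group rested on very few reads. Slc25a35 had 6 and 12 against 33 and 19 reads (log2 fold change 1.45, adjusted p = 0.234 from edgeR), and its exons overlap Rangrf on the opposite strand over 1151 bases. Its log2 fold change was 0.95 without wildtype replicate 1 and 2.17 without wildtype replicate 2. Slc25a34 had 3 and 30 against 35 and 50 reads (log2 fold change 1.25, adjusted p = 0.385 from edgeR), so the wildtype libraries differed more from each other than the second did from the Nrf1-CKO libraries. Its log2 fold change was 0.35 without wildtype replicate 1 and 3.85 without wildtype replicate 2. Slc25a43 had between 12 and 21 reads in each library. Slc25a46, which acts in the outer membrane in mitochondrial shape and fusion, was the most abundant of the group per length and had 5916 and 5038 against 5691 and 5528 reads. Its means were 67.7 ± 0.263 and 67.7 ± 1.19 CPM, and the interval of its log2 fold change ran from -0.17 to 0.17. Slc25a47 and Slc25a53 had overlapping libraries with log2 fold changes of 0.07 and 0.01. Slc25a48 had 1 read in 1 Nrf1-CKO library, and Slc25a54 had 0 reads in all 4 libraries. With 3 counts as the limit that a count of 0 allows, neither level nor change could be given for this pair.

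**Figure D4:**
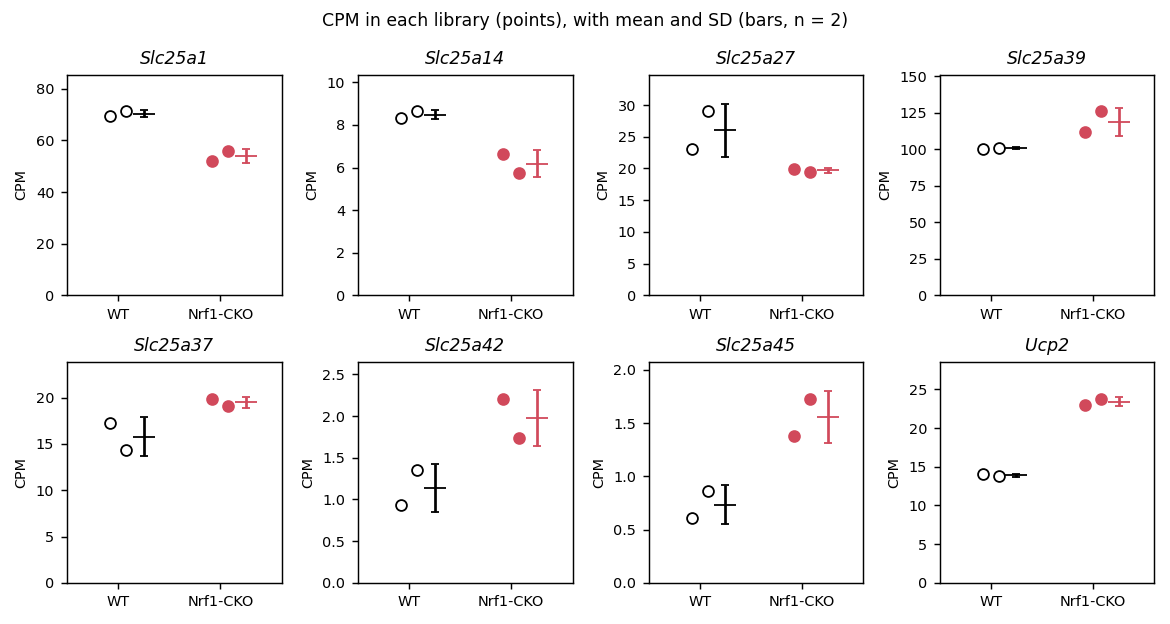
CPM in each library for the carriers on which the comparison turned and for Ucp2, with open points for wildtype, filled points for Nrf1-CKO libraries and bars for the mean and SD of 2 libraries. Each axis starts at 0. In all 8 genes, picked with their values known, the genotypes do not overlap. Over all tested genes, 31.6% were lower and 30.9% higher without overlap. The gap is small beside the level for Slc25a39 and largest in proportion for Slc25a45, which had 0.734 and 1.56 CPM.

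Promoters of the carriers were searched for the core of the palindrome to which Nrf1 binds, CGCATGCG, for its looser form CGCANGCG (CGCNTGCG on the other strand) and for TGCGCA, which can overlap both. The windows run from 250 bases before to 50 bases after the RefSeq gene start on GRCm38.p6, and both strands were read. Windows were at hand for 36 of the 47 carriers. The core was in 0 of them, against 2.07% of 27025 genes. The looser form was in 2 (5.56%), Slc25a3 and Slc25a31, against 9.22% of all genes, and TGCGCA was in 4 (11.1%), Slc25a3, Slc25a31, Slc25a21 and Slc25a36, against 8.79%. None of these 4 carriers was called. Of all tested genes with the looser form, 10.2% were called lower and 4.45% higher, and of those with TGCGCA 11.7% and 5.02%, so a count of 0 in 4 genes is near the background. A match describes the letters only, and no match says nothing about binding of Nrf1. For comparison, 12.9% of the 449 tested genes with the core were called lower and 1.56% higher, against 7.45% and 13% of genes without it. The stretches upstream of the annotated gene are printed for the 2 carriers with the looser motif, with the letters of CGCNTGCG and TGCGCA in capitals, and for Slc25a1, Slc25a42 and Slc25a45, on which the comparison of genotypes turned and which hold no match. They lie at chr10:91124060-91124217 (minus strand), chr3:40708621-40708854 (plus), chr16:17928220-17928469 (minus), chr8:70212306-70212531 (minus) and chr19:5877572-5877807 (plus), in the order given.
Slc25a3: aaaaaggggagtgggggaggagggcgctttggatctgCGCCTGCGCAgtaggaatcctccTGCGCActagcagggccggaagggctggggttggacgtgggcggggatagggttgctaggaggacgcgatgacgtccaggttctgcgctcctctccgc
Slc25a31: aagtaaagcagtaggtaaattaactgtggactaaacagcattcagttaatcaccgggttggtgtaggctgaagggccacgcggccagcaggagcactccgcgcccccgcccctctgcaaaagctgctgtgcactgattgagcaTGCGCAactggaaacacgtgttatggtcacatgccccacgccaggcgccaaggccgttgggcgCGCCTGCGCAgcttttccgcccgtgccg
Slc25a1: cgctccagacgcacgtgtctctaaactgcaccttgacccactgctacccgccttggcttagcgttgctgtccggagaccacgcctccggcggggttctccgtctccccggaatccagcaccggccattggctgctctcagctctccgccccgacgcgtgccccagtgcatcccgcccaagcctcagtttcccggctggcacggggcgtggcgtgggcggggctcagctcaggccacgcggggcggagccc
Slc25a42: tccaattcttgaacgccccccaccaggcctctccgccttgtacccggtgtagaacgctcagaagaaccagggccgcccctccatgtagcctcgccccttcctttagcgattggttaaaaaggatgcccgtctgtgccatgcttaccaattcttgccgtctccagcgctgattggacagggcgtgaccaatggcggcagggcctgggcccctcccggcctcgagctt
Slc25a45: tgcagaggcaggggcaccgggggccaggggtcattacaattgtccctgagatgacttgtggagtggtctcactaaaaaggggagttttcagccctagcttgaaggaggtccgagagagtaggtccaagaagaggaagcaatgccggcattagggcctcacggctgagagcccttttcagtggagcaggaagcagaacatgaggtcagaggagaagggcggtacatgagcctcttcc

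The looser motif began 213 bases before the start of Slc25a3 and 44 bases before that of Slc25a31. Slc25a3 was among the highest and Slc25a31 among the lowest carriers in these retinas, so the same letters stood upstream of genes at opposite ends of the range of levels.

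Companion genes of mitochondrial transport were read in the same fit. They comprise carrier relatives under other symbols, the TIM22 insertion pathway and other solute transporters of mitochondria. Of 32 genes, 31 were tested, 0 were called lower and 2 (6.45%) were called higher by edgeR, against the 8.04% and 12.8% of all tested genes. At an unadjusted p under 0.05, 3 (9.68%) were lower and 2 (6.45%) higher, against 16.9% and 17.9% of all tested genes, and DESeq2 gave the same 2 calls. At an adjusted p of at most 0.2 with no limit on the fold, 6 (19.4%) were lower and 2 (6.45%) higher, against 19.5% and 20.4% of all tested genes. Ucp2, an SLC25 protein under its own name that is abundant in immune cells, had 1228 and 1022 against 1908 and 1971 reads. Both Nrf1-CKO libraries were well above both wildtype libraries, and Ucp2 rose 1.68-fold, a log2 fold change of 0.75 (SE 0.10, adjusted p = 0.00111 from edgeR). The macrophage and microglia markers had sums of 75.4 and 68.8 CPM in wildtype and 233 and 280 CPM in Nrf1-CKO libraries, with Csf1r at 2452 and 1980 against 6138 and 6992 reads, and their part in the level of Ucp2 was not tested. Slc8b1, the mitochondrial sodium-calcium exchanger, had 278 and 182 against 405 and 469 reads and rose 1.87-fold (log2 fold change 0.90, SE 0.22, adjusted p = 0.0172 from edgeR). Its groups did not overlap.

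Mtch1 and Mtch2, carrier relatives of the outer membrane, were lower in both Nrf1-CKO libraries. Mtch1 had 17885 and 15531 against 15022 and 15790 reads (log2 fold change -0.15, adjusted p = 0.189 from edgeR). Mtch2 had 6059 and 4661 against 4969 and 4699 reads (log2 fold change -0.18, adjusted p = 0.159 from edgeR), and both differences were under 1.4-fold.

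The pathway that inserts the carriers held 9 tested genes, of which 0 were called and 8 had intervals inside 1.4-fold, where 46.6% of all tested genes did. Their sum was 382.7 and 371 against 361.5 and 355.3 CPM. Timm22, which forms the insertion channel, had 2669 and 2198 against 2432 and 2583 reads, and its log2 fold change was 0.01 with an interval from -0.20 to 0.21. Timm8b, a small chaperone of the intermembrane space, had 7179 and 5779 against 5633 and 5709 reads. It was lower in both Nrf1-CKO libraries, with a log2 fold change of -0.23 (adjusted p = 0.0629 from edgeR), and was the 1 gene of the pathway with an adjusted p of at most 0.2. Outside this pathway, Vdac3, a pore of the outer membrane, had 3560 and 2708 against 2252 and 2364 reads. Both Nrf1-CKO libraries were lower, with a log2 fold change of -0.47 (adjusted p = 0.00699 from edgeR), short of 1.4-fold. Abcb10, an inner membrane transporter of the heme pathway, had 2499 and 2064 against 1881 and 1512 reads and a log2 fold change of -0.46 (adjusted p = 0.0235 from edgeR), also short of it. Ucp1 had between 1 and 39 reads in each library, and Ucp3 was not tested at 15 and 2 against 1 and 1 reads.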

How the data were processed

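The 4 RNA-seq libraries were grouped by their labels. Alignment to mm10 was by TopHat2 2.7.2 and counting by HTSeq, and the counts were deposited by the authors as whole numbers per gene with no normalization. Their strand setting is not given in the sources used here, so reads of overlapping and antisense genes cannot be told apart. The authors also deposited normalized values on a log2 scale, whose method is not given in the sources used here. The submitters' processing notes also list DESeq and limma, with no role. Alignments that were not unique made up 54.6% to 58% of all entries in the 4 libraries, and the 5 summary lines of HTSeq, 74% to 75% of entries, stayed out of library sizes and tests.

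Genes were filtered with filterByExpr (minimum count 10) and scaled with TMM factors in edgeR 4.0.16 under R 4.3.3. The quasi-likelihood test compared the genotypes across 15762 genes without further terms, and the script was tested on simulated data. The thresholds of a call follow the study's methods, whose own test, Cuffdiff, needs alignments and was not used here. CPM are edgeR's library-size-scaled reads with TMM factors. Intervals cover the spread between 2 libraries per genotype and counting error only. The variance of each gene in them is moderated by that of all tested genes. The chi-square per gene between replicates was 46.7 in wildtype and 58.9 in Nrf1-CKO libraries, so none was a repeated library. Alternatives were DESeq2 1.42.0, limma 3.58.1 on the deposited values, other scalings, filters and thresholds, the replicate number as a block, and each library left out in turn. Positions and lengths come from GENCODE vM21 (GRCm38) and promoters from RefSeq, and all 47 carriers matched GENCODE.

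The carriers, role groups, companion genes and marker lists were chosen with earlier results of these data known. The text names each called carrier, the most abundant carrier per length and the carrier with the largest fitted change in each role group, carriers below the filter, and called companion genes. Other members, the counts at any fold, the promoter motifs and the split at 1000 reads were added after their values were seen. The result for 1 further carrier is not reported here.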

Additional observations from a re-analysis of the deposited data

How the results depend on the processing

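With 2 libraries per genotype, intervals were wide for carriers with few reads. The 2 carriers called higher became 0 at an adjusted p of at most 0.05, 0 when edgeR tested the fold change against 1.4-fold (glmTreat) and 0 with limma on the deposited normalized values. Leaving out each library in turn gave 0 to 3 carriers called higher and 0 to 1 called lower. Without wildtype replicate 1 there were 0 higher and Slc25a27 was lower, without wildtype replicate 2 Slc25a34 joined the calls, without Nrf1-CKO replicate 1 Slc25a14 was lower and Slc25a21 replaced Slc25a42, and without Nrf1-CKO replicate 2 only Slc25a42 was called. The carriers with an interval inside 1.4-fold went from 28 to between 18 and 24, an alternative added after seeing the data. With 1 library in a genotype, that library is assumed to vary like the others. The median log2 fold change of the carriers was 0.11 with upper-quartile scaling (0.04 over all genes), 0.0474 with library size only (-0.02 over all genes), 0.0463 with limma, and 0.0234 to 0.0963 with a library left out.

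With the replicate number as a block, 0 carriers were called lower and 3 higher, Slc25a34 (log2 fold change 1.74, adjusted p = 0.188 from edgeR) beside Slc25a42 and Slc25a45. The numbers were not shown to pair the libraries, since the deviations of same-numbered libraries correlated at -0.0025 over the tested genes. The block changed no call among the companion genes.

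The companion genes called lower became 1 with library size only (Vdac3) and 0 to 2 with a library left out: Vdac3 and Ucp3 without wildtype replicate 2, Abcb10 and Ucp1 without Nrf1-CKO replicate 1, and Vdac3 without Nrf1-CKO replicate 2. Those called higher became 1 with limma, where Slc8b1 was at 0.43. The sign of genes near 0 turned for Slc25a3 without wildtype replicate 1 (-0.0248, in a range up to 0.1255 with other libraries left out), for Slc25a4 with library size only (-0.0037), and for Slc25a46 with upper-quartile scaling (0.0379), RLE factors (0.0033), DESeq2 (0.0033), at least 10 counts in every library (0.0043), limma (0.0024), without wildtype replicate 2 (0.0057) and without Nrf1-CKO replicate 2 (0.0144, in a range from -0.019). The cause of these shifts was not tested.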
